A study of Mus musculus with 4 samples.

Results

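AP-1 is a transcription factor made of pairs of leucine zipper proteins, and 9 of its genes were examined in keratinocytes (KCs), the cells that build the epidermis: the Fos genes Fos, Fosb, Fosl1 and Fosl2, the Jun genes Jun, Junb and Jund, and the partner genes Maff and Batf3. They were taken by gene symbol from the 25814 genes of the count tables, and no level or difference enters that rule. The 4 libraries hold polyadenylated RNA of untreated primary KCs grown from the tails of adult 129/sv mice in serum-free medium with 0.06 mM calcium. In the 2 libraries labelled Nfat5-/- the donor mice were deficient in NFAT5, a transcription factor known for its role in the response to salt, and the other 2 came from wild-type (WT) littermates. The study describes its 129/sv animals as small, with shrunken kidneys and lasting high blood sodium, in words that do not separate the genotypes.

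Jun proteins can pair with each other or with a Fos protein, whereas Fos proteins need a Jun partner, and the pairs bind the AP-1 site or the related cAMP response element (CRE) in DNA. Fos, Fosb, Jun and Junb belong to the immediate-early genes, which growth factors, stress and the handling of cells switch on for a short time through MAP kinases. In the epidermis AP-1 is known for its part in KC growth, in the genes of the cornified layer and in wound repair.

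Promoter sequences of 8 of the 9 genes were found in RefSeq (build GRCm38.p6), in 10 windows that run from 250 bases before to 50 bases after a transcription start, and none was found for Fosl1. Not every RefSeq start was that of the gene as counted. It lay at -1210 bases from it for Jund, whose window ends before the gene begins. It lay inside the gene at 567 bases for Batf3, 671 for Fosl2, and 899 and 1781 for 2 windows of Maff. Those of Fos, Fosl2 and Jun are shown because Fos and Fosl2 had the largest differences between the genotypes and Jun is the best-known partner of Fos. They lie at chr12:85473640-85473939 on the plus strand, chr5:32136222-32136521 on the plus strand and chr4:95052173-95052472 on the minus strand, and each is written in the direction of its gene. Capitals mark the first letters of the CRE, TGACG (here the short CRE site), in Fos and the core of the sites bound by NFAT proteins, GGAAA, in Jun, both searched on either strand.
Fos: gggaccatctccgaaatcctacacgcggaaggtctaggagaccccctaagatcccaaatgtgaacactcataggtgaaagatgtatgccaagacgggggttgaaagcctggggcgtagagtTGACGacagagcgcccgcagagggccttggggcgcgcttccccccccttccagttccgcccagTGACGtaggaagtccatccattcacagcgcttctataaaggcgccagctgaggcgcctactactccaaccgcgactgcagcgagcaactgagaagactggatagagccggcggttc
Fosl2: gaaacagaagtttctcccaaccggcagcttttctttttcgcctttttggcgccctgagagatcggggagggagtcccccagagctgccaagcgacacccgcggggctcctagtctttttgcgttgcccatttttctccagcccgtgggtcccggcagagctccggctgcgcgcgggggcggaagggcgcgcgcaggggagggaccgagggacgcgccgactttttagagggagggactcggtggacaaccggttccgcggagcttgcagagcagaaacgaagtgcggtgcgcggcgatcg
Jun: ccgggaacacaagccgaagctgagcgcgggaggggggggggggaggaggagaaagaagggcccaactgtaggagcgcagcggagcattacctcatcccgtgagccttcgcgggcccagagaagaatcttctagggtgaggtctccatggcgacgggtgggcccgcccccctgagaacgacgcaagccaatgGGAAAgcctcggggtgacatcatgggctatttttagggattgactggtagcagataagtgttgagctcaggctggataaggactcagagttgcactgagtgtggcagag
In Fos the short CRE sites began at -129 and -66 from the start, and the Fos promoter is known for a CRE close to its start. The Jun core began at -59, and the Fosl2 window, with its start inside the gene as counted, held none of the letters searched. The short CRE site occurred in 5 of the 10 windows, those of Fosb, Junb and Fos and 2 of Maff, against 20.8% of all 32851 RefSeq windows of that length. The full CRE, TGACGTCA, which contains the short site, occurred in 1 window, of Maff, against 1.79% of all. The NFAT core occurred in 4 windows, of Batf3, Jun and Maff, against 61.3% of all. The AP-1 site TGANTCA was in 0 of the 10 windows and in 7.81% of all, and the CArG box, the site of serum response factor, was in 0 and in 1.63% of all. The known serum response element of Fos lies upstream of the window shown. A match is a run of letters and was not tested as a binding site.

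Depth lay between 16219445 and 23494436 gene reads, so that 3 reads, taken as the floor, corresponded to 0.128 to 0.185 CPM (counts scaled to library size). This floor covers counting error only. The gene reads of Nfat5 itself overlapped between the labels, with 408 and 929 gene reads in the WT libraries against 715 and 770 in those labelled Nfat5-/-, an edgeR log2 fold change of 0.09 with an adjusted p of 0.913. Its intron reads, 34 and 35 against 61 and 56, did not overlap, those labelled Nfat5-/- being higher, at an edgeR log2 fold change of 0.88 (SE 0.25, adjusted p = 0.208). Reads of the gene do not show whether a deleted part of it or its protein is absent, and the directions given follow the labels. The 6 KC markers summed to 11064 to 12870 RPKM (exon reads per unit of exon length and of library depth), with Krt5 and Krt14, the keratins of basal KCs, at 4990 RPKM or more in each library. Smooth muscle markers summed to 184 and 151 RPKM in WT KCs against 518 and 819 RPKM in Nfat5-/- KCs, mostly from Acta2. All 4 that could be tested (Acta2, Tagln, Cnn1, Myh11) were higher at an edgeR adjusted p under 0.05, against 0.943% of all genes tested. Des, a marker of muscle, was at 0.0199 RPKM or below. Melanocyte markers summed to 7.29 and 6.99 against 2.04 and 2.89 RPKM. Of the 4 tested, Tyrp1 was lower past that threshold, against 0.325% of all genes tested. Fibroblast markers stayed at or under 1.13, immune markers at or under 2.46 and endothelial markers at or under 0.777 RPKM. In RNA of a whole culture, fewer cells of a type and less RNA per cell cannot be told apart.

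All 9 genes had enough reads to be tested, and the 4 libraries ordered them into clear tiers. On the RPKM scale, which is per length and allows levels of different genes to be compared, Junb and Jund were highest, with medians over the libraries of 152 and 139 RPKM and ranges that overlapped. Jun, Fosl2 and Fosl1 followed with medians of 30.2, 26.2 and 24.7 RPKM, and their ranges overlapped too. Below them came Fos at 13.9, Maff at 8.74, Fosb at 2.32 and Batf3 at 0.718 RPKM, and none of these ranges overlapped the next.

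**Figure D1:**
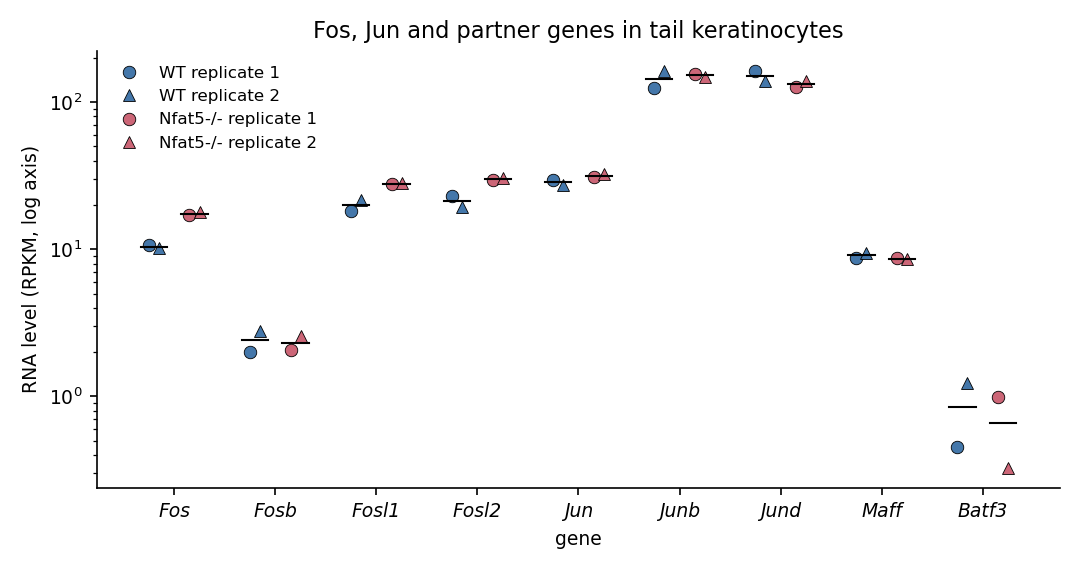
RNA level in RPKM (log axis) of the 9 genes, with WT libraries in blue, Nfat5-/- libraries in red, circles for replicate 1, triangles for replicate 2 and bars for group means. Junb and Jund lie at 124.75 RPKM or above in every library, Batf3 at or below 1.24 RPKM, and the genotypes separate for Fos, Fosl1, Fosl2 and narrowly for Jun, and for Maff, whose Nfat5-/- libraries lie just lower.

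Among the Fos genes, Fos, the prototype of the family, was the only 1 of the 9 genes past the threshold of 0.05 on the adjusted p. It stood at 10.7 and 10.2 RPKM in the WT libraries and at 17.1 and 17.8 RPKM in the Nfat5-/- libraries. Both Nfat5-/- libraries lay above both WT libraries, and the libraries of a genotype lay close together, at 10.4 ± 0.386 and 17.5 ± 0.482 RPKM (SD, n = 2). In reads of the whole gene (GRCm38 chr12:85473890-85477273, plus strand) this was 377 and 478 against 874 and 721. Fos rose by 0.76 on the log2 scale (SE 0.11, 95% interval 0.50 to 1.03, adjusted p = 0.0319 with edgeR over all genes tested), a ratio of mean RPKM of 1.68. Across all 12614 genes tested 1.27% passed the same threshold, 0.943% higher and 0.325% lower in Nfat5-/- KCs. The edgeR adjusted p of Fos was 0.0564 with the replicate number as a block, at a log2 fold change of 0.76. Fos did not pass without Nfat5-/- replicate 1 or without Nfat5-/- replicate 2, fits that leave 1 Nfat5-/- library. Its log2 fold changes there were 0.81 and 0.72.

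Reads that crossed an exon junction of Fos numbered 49 and 60 in WT and 109 and 88 in Nfat5-/- KCs. Intron reads of Fos numbered 2 and 4 against 4 and 4, 0.837% of its gene reads or less, too few to test. Exon and junction reads thus carried the difference in Fos, and at this depth a difference in its unspliced RNA was not detectable.

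Fosl1 and Fosl2, whose proteins lack the strong activation domain of Fos and FosB, had the next largest differences. Fosl1 (chr19:5447703-5455945, plus strand) was at 18.2 and 21.7 RPKM in WT KCs against 27.7 and 28.1 RPKM in Nfat5-/- KCs, or 532 and 839 against 1158 and 932 gene reads. Its genotypes did not overlap, but its edgeR log2 fold change of 0.49 (SE 0.12, 95% interval 0.21 to 0.77) missed the threshold with an adjusted p of 0.120. Fosl2 (chr5:32135801-32157842, plus strand) was at 22.9 and 19.4 RPKM in WT KCs against 29.4 and 30.5 RPKM in Nfat5-/- KCs, or 2501 and 2822 against 4648 and 3814 gene reads. Its libraries did not overlap either, with an edgeR log2 fold change of 0.52 (SE 0.12, 95% interval 0.24 to 0.80) and an adjusted p of 0.0985. Without the filter on low counts both passed, with edgeR adjusted p of 0.00762 for Fosl1 and 0.00110 for Fosl2, and DESeq2 called Fosl2 (adjusted p = 0.00850). Those settings called more genes throughout, 6.3% of all genes tested without the filter and 3.39% with DESeq2. Fos, Fosl1 and Fosl2 were the 3 of the 9 genes with an unadjusted edgeR p under 0.05, which 14.6% of all genes had.

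Fosb, a close relative of Fos in its domains, had fewer reads and overlapping groups. It was at 2.02 and 2.79 RPKM in WT KCs against 2.06 and 2.58 RPKM in Nfat5-/- KCs, from 131 and 256 against 208 and 209 gene reads (chr7:19302696-19310051, minus strand). The difference between the libraries of a genotype exceeded that between the means. The edgeR log2 fold change of Fosb was 0.02 (SE 0.23, 95% interval -0.52 to 0.57, adjusted p = 0.981), an interval that includes the value of Fosl1 or Fosl2. Its sign turned to -0.05 when exon reads replaced gene reads. The exon length given for Fosb, 3782 bases, is that of 1 of its 7 GENCODE transcripts, and the counts per gene do not tell its truncated form from the full one.

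**Figure D2:**
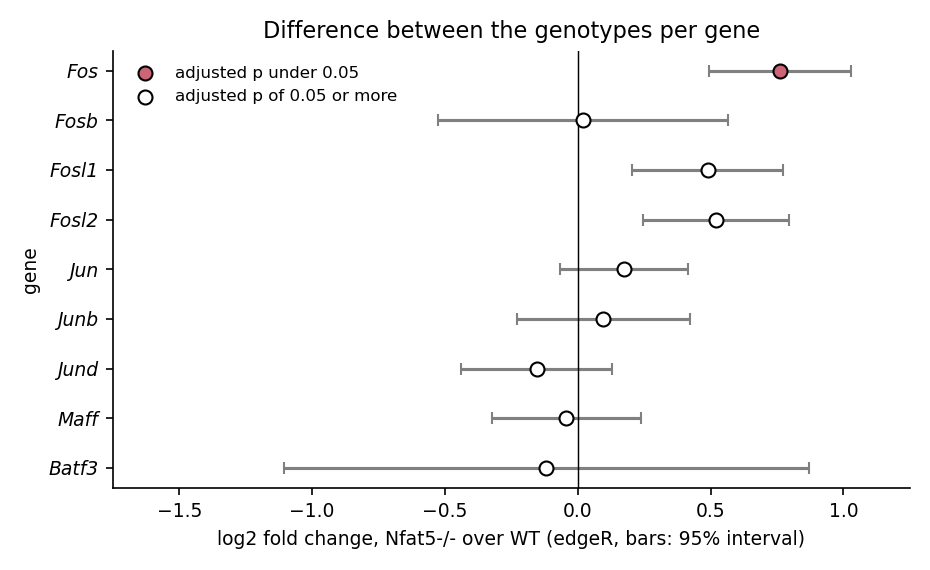
Log2 fold change of each gene between Nfat5-/- and WT KCs (edgeR on gene reads, 2 libraries per genotype) with its 95% interval, the gene past the threshold filled. The intervals of Fos, Fosl1 and Fosl2 lie above 0, and those of the other 6 genes include it.

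For the Jun genes, 0 of the 3 had an adjusted edgeR p under 0.05 (1.27% of all genes), 0 an unadjusted one (14.6% of all genes), and DESeq2 called 0 (3.39% of all genes). Jun, the partner that gives AP-1 much of its activity, was at 29.5 and 27.4 RPKM in WT KCs against 31.0 and 32.4 RPKM in Nfat5-/- KCs, or 1565 and 1937 against 2378 and 1973 gene reads (chr4:95049034-95052222, minus strand). The genotypes did not overlap, but the gap between them was smaller than the difference between the WT libraries, with an edgeR log2 fold change of 0.17 (SE 0.10, 95% interval -0.07 to 0.42, adjusted p = 0.496). Junb, known in the epidermis as a counterweight to Jun, was at 124.75 and 163 RPKM in WT KCs against 156 and 149 RPKM in Nfat5-/- KCs, or 3752 and 6546 against 6777 and 5130 gene reads (chr8:84974484-84978718, minus strand). Both Nfat5-/- libraries lay between the WT libraries, and the edgeR log2 fold change was 0.10 (SE 0.14, 95% interval -0.23 to 0.42, adjusted p = 0.802). Without WT replicate 1, the lowest of the 4 for Junb, that value was -0.07.

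Jund, the Jun gene that is on in most resting cells, was at 162 and 138 RPKM in WT KCs against 127 and 139 RPKM in Nfat5-/- KCs, or 4496 and 5104 against 5099 and 4424 gene reads (chr8:70698949-70700616, plus strand). Its libraries overlapped, and the edgeR log2 fold change was -0.16 (SE 0.12, 95% interval -0.44 to 0.13, adjusted p = 0.615). The Jun genes are listed with a single exon each, so spliced and unspliced RNA cannot be told apart for them. Whether the counts were made by strand is not stated. The annotation (GENCODE, GRCm38) places Junos opposite Jun, Gm11175 opposite Jund, Ccdc85b opposite Fosl1 and the end of Prdx2 opposite that of Junb. Among the genes counted, only Prdx2 overlaps an AP-1 gene, with up to 6999 gene reads in a library. Reads of Prdx2 and Junb could thus be counted for either gene, and reads of the other partners for the AP-1 gene.

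Summed by family, the Fos genes stood at 53.8 and 54.1 RPKM in WT KCs against 76.3 and 79.0 RPKM in Nfat5-/- KCs. The Jun genes summed to 316 and 329 RPKM in WT KCs against 313 and 320 RPKM in Nfat5-/- KCs, with overlap. The Fos sum was 0.170 and 0.164 of the Jun sum in WT and 0.243 and 0.247 of it in Nfat5-/- KCs. These sums describe RNA, were not tested, and rest on the genes described above.

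Jun genes thus made up most of the summed Fos and Jun RNA in every library. Within the Fos sum, Fosl2 took 35.9% to 42.6%, Fosl1 33.8% to 40.1%, Fos 18.8% to 22.6% and Fosb 2.71% to 5.16%. Fos took 19.9% and 18.8% in WT and 22.5% and 22.6% in Nfat5-/- KCs, and Fosb, from few reads, took 3.75% and 5.16% against 2.71% and 3.26%. The shares of Fos and Fosb did not overlap between the genotypes and those of Fosl1 and Fosl2 did. Because a share is set by the whole sum, that of Fosb was lower in Nfat5-/- KCs while its own level overlapped, as given above. Within the Jun sum, Jun took 9.33% and 8.34% in WT and 9.88% and 10.1% in Nfat5-/- KCs, and the rest was split between Junb and Jund.

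**Figure D3:**
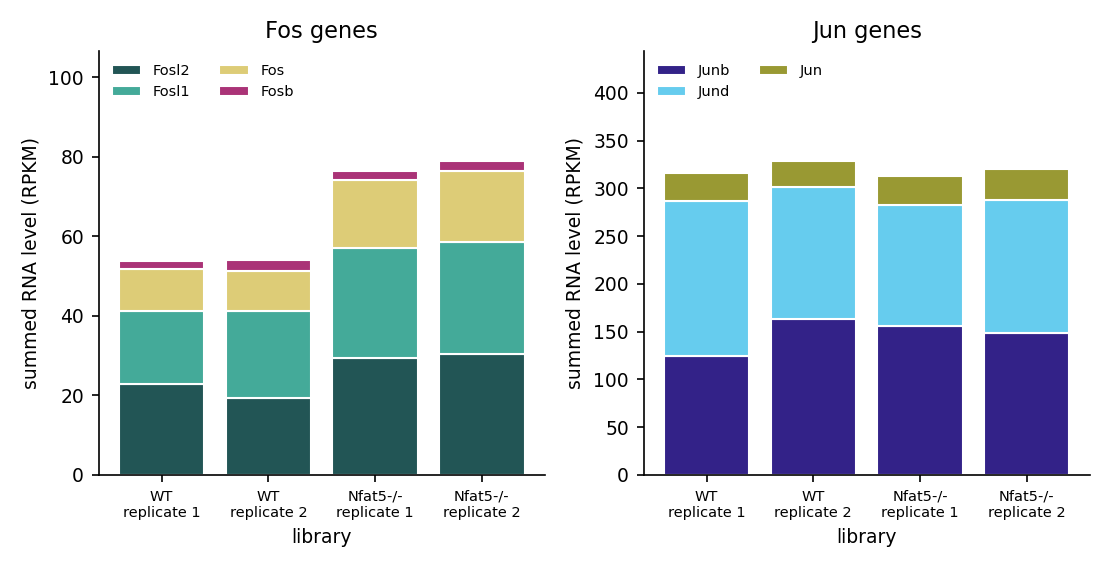
Summed RNA level in RPKM of the 4 Fos genes (left) and the 3 Jun genes (right) in each library, stacked by gene, on axes that start at 0 and differ in range. The Fos stacks reach 53.8 and 54.1 RPKM in WT against 76.3 and 79.0 RPKM in Nfat5-/- KCs, and the Jun stacks lie between 313 and 329 RPKM.

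Of the partner genes, Maff encodes a small Maf protein without an activation domain and Batf3 a partner of Jun proteins best known from dendritic cells. Maff was at 8.76 and 9.38 RPKM in WT KCs against 8.72 and 8.58 RPKM in Nfat5-/- KCs, or 385 and 541 against 553 and 432 gene reads (chr15:79346621-79359076, plus strand). In RPKM both Nfat5-/- libraries lay just below both WT libraries, whereas the reads scaled by TMM overlapped, with an edgeR log2 fold change of -0.04 (SE 0.12, 95% interval -0.32 to 0.24, adjusted p = 0.907). Batf3 (chr1:191097847-191108945, plus strand) had 21 and 46 gene reads in WT and 48 and 20 in Nfat5-/- KCs, and 0.451 and 1.24 against 0.985 and 0.327 RPKM. The libraries of each genotype differed by more than the means did, and its edgeR log2 fold change of -0.12 (SE 0.42, 95% interval -1.11 to 0.87, adjusted p = 0.929) leaves a difference of 2-fold in its interval. The value was 0.30 without WT replicate 2 and 0.24 without Nfat5-/- replicate 2.

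Batf3 stood out by its intron reads, which made up 71.4% and 52.2% of its gene reads in WT and 60.4% and 75.0% in Nfat5-/- KCs. Its exon reads numbered just 6 and 22 against 19 and 5. The exon length given for Batf3, 801 bases, is that of 1 of its 5 GENCODE transcripts, and 796 exonic bases of the others lie outside that transcript. Whether reads there were counted as intron reads was not tested. Fosb came next with intron reads of 4 and 22 in WT and 20 and 23 in Nfat5-/- KCs, or 3.05% and 8.59% against 9.62% and 11.0% of its gene reads. For Fosl1, Fosl2, Maff and Fos the share was 3.01% or less in every library.

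Of the 4 genes with enough intron reads for a test (Fosb, Fosl1, Fosl2, Batf3), 0 passed the edgeR threshold and 0 had an unadjusted p under 0.05, where 0.14% and 12.3% of the 5734 genes tested on intron reads did, and no other tool was run on them. The largest value was that of Fosb, an edgeR log2 fold change in intron reads of 0.87 (SE 0.48, adjusted p = 0.486). The intron values were 0.62 for Fosl2, 0.29 for Batf3 and 0.24 for Fosl1, relative to a median of 0.01 over all genes. Intron reads scaled differently from gene reads, with TMM factors of 1.13 and 1.08 in WT and 0.892 and 0.920 in Nfat5-/- KCs. With library totals alone the median of all genes was -0.27, and the values were 0.60 for Fosb, 0.34 for Fosl2, 0.01 for Batf3 and -0.04 for Fosl1, whose sign turned. For Fosb WT replicate 1, with its 4 intron reads, was the library that lay apart. Fosb passed when WT replicate 2 was left out, a fit in which replicate 1 was the only WT library.

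**Figure D4:**
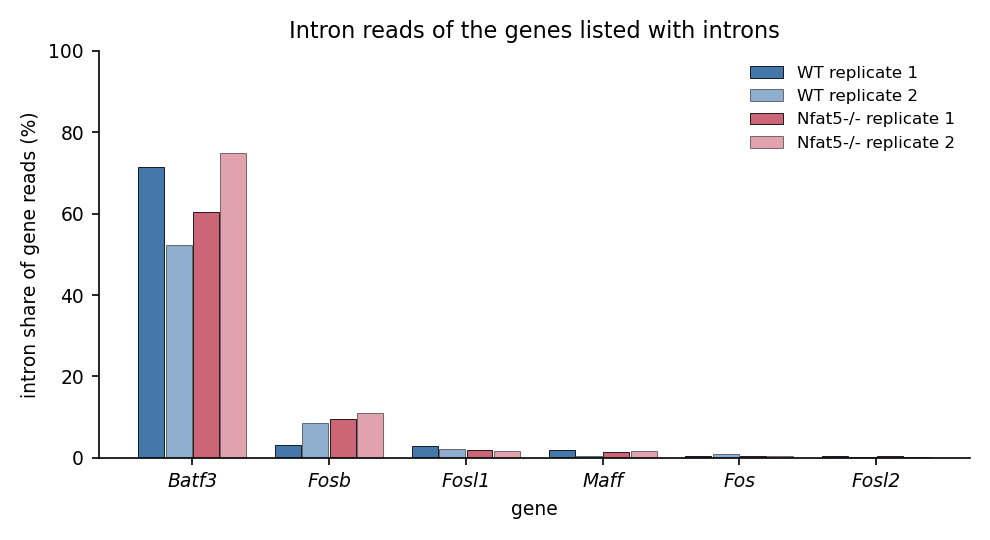
Intron reads as a percent of gene reads for the 6 genes listed with introns, WT in blue and Nfat5-/- in red, with the paler bar for replicate 2. Batf3 lies between 52.2% and 75.0%, Fosb between 3.05% and 11.0%, and the rest at 3.01% or below.

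Over the 9 genes, 6 log2 fold changes were above 0 and 3 below, with a median of 0.10 against -0.01 for all genes tested. The genotypes did not overlap in TMM-scaled reads for 4 genes (Fos, Fosl1, Fosl2, Jun), all higher in Nfat5-/- KCs, whereas of all genes tested 47.8% did not overlap in either direction and 23.3% were higher without overlap. On the scale used in the study, a 2-fold ratio of RPKM, here of the group means and with the added demand that the genotypes do not overlap, 0 of the 8 genes with a mean of at least 2 RPKM passed, against 2.28% of all such genes. Fos came closest with its ratio of 1.68. Whether the Fos and Jun genes differ from each other in their response was not tested.

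The genes with the most similar profile over the 4 libraries, by Euclidean distance of centred log2 CPM among 9056 tested genes with a mean of at least 2 RPKM, were Nipal4, Shisa4 and Pof1b for Fos. They were Igf2bp2, Tlr2 and Anxa6 for Fosl1, and Selenow, Irak2 and Gsto1 for Fosl2. For Fosb they were Mbnl1, Pla2g7 and Tmcc1. The neighbours of Jun were Sqstm1, Dcbld1 and Pink1, those of Junb Appbp2, Foxp1 and Ube2g2, and those of Jund Emp2, Gzf1 and Sympk. Maff had Ccdc66, Map1lc3b and Ubqln1 and Batf3 had Rgs16, Mab21l3 and Rbks. Of all these neighbours only Nipal4 was past the threshold, with an edgeR log2 fold change of 0.69 (adjusted p = 0.0318). With 4 libraries many genes share a profile, and the lists are a description.

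The genes around AP-1 were followed in 7 lists, of which 101 genes could be tested and 3 (2.97%) passed, all higher in Nfat5-/- KCs, against 1.27% of all genes tested, or 0.943% higher. Areg and Map2k7 carry other names in the tables and were matched by Ensembl ID, and Map2k7 is split there into several entries, of which that with this ID was used. Of the other AP-1 and small Maf genes, 0 of 10 passed the edgeR threshold or were called by DESeq2, 4 had an unadjusted p under 0.05 (14.6% of all genes), and the median log2 fold change was -0.20. Mafg was at 18.9 and 21.9 RPKM in WT KCs against 19.0 and 17.8 RPKM in Nfat5-/- KCs. Atf3, an AP-1 partner induced by stress, was at 21.4 and 19.8 against 18.8 and 14.8 RPKM, an edgeR log2 fold change of -0.31 (adjusted p = 0.327). Jdp2, a repressing partner of Jun chosen after its values were seen, was at 17.3 and 17.8 against 14.2 and 11.5 RPKM, an edgeR log2 fold change of -0.44 (adjusted p = 0.180). Both were lower in each Nfat5-/- library than in each WT library, and neither passed the test. Of all genes tested, 47.8% did not overlap in either direction.

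Upstream of AP-1, 0 of 21 MAP kinases and their kinases passed, with 3 unadjusted edgeR p under 0.05, where 1.27% and 14.6% of all genes did, and the median log2 fold change was -0.08. Map2k3, a kinase of p38, was at 67.8 and 76.7 RPKM in WT KCs against 77.2 and 71.3 RPKM in Nfat5-/- KCs, and Mapk13, a p38 isoform known from KCs, at 57.5 and 53.5 against 64.9 and 68.6 RPKM. Of the MAP kinase phosphatases, which switch these kinases off, 0 of 9 passed and 0 had an unadjusted edgeR p under 0.05, with a median of 0.07. Dusp7 was at 71.8 and 72.6 against 60.7 and 66.1 RPKM, and Dusp6 at 61.9 and 76.7 against 59.9 and 50.8 RPKM. Of serum response factor and its partners, 0 of 6 passed and 0 had an unadjusted edgeR p under 0.05, with a median of -0.01. Srf was at 26.8 and 26.3 against 27.7 and 26.7 RPKM and Elk3 at 23.4 and 29.5 against 22.5 and 23.4 RPKM. DESeq2 called 0 genes of these 3 lists.

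Other immediate-early genes, which share their inducers with Fos, had 0 of 20 past the edgeR threshold and 6 with an unadjusted p under 0.05, against 14.6% of all genes, and their median log2 fold change was 0.11. DESeq2, which called 3.39% of all genes, called Btg2, Ctgf and Egr1. Ier3 was at 416 and 449 RPKM in WT KCs against 385 and 349 RPKM in Nfat5-/- KCs, and Cyr61 at 304 and 370 against 359 and 324 RPKM. Egr1, a zinc finger factor induced together with Fos in many cells, was at 12.4 and 18.4 against 29.4 and 35.4 RPKM. Its edgeR log2 fold change of 1.09 (adjusted p = 0.0532) missed the threshold, and it was picked after its values were seen. Egr1 passed in 11 of 15 settings, with an edgeR adjusted p of 0.0186 under the replicate block. Heat shock genes, which can rise when cells are taken apart, had 0 of 9 past the edgeR threshold, 0 with an unadjusted p under 0.05 and 0 called by DESeq2, with a median of 0.10. Hspb1 was at 3779 and 2517 against 2411 and 3185 RPKM, and Hspa8 at 790.1 and 865 against 918 and 883 RPKM.

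Downstream, 3 of 26 classical AP-1 targets of KCs were higher past the threshold in Nfat5-/- KCs and 0 lower, against 0.943% and 0.325% of all genes, 13 had an unadjusted edgeR p under 0.05 (14.6% of all genes), and the list had a median log2 fold change of 0.27 and 20 values above 0. Sprr1b, a precursor of the cornified envelope, was at 23.3 and 17.1 RPKM in WT KCs against 60.4 and 88.0 RPKM in Nfat5-/- KCs, an edgeR log2 fold change of 1.90 (SE 0.23, adjusted p = 0.0203). Sprr1a, of the same family, was at 55.7 and 36.7 against 109.8 and 161 RPKM, an edgeR log2 fold change of 1.58 (SE 0.25, adjusted p = 0.0361). Mmp13, a collagenase known as an AP-1 target, was low at 0.338 and 0.338 against 1.16 and 1.08 RPKM, an edgeR log2 fold change of 1.76 (SE 0.30, adjusted p = 0.0463). Sprr1b, Sprr1a and Mmp13 were higher in both Nfat5-/- libraries than in either WT library, as were 23.3% of all genes tested. Not every protease of the list lay that way. Mmp1b, also a collagenase and chosen after its values were seen, was at 0.374 and 0.623 against 0.229 and 0.145 RPKM without overlap. Its edgeR log2 fold change was -1.82 on gene reads (adjusted p = 0.106) and -1.38 on exon reads (adjusted p = 0.306). Mmp1b was near the floor, with exon reads of 9 and 20 against 8 and 4. Intron reads made up 76.9% and 56.5% of its gene reads in WT and 60.0% and 42.9% in Nfat5-/- KCs. Mmp9, a gelatinase also chosen after its values were seen, was at 17.2 and 58.4 against 20.01 and 18.8 RPKM. Its edgeR log2 fold change of -0.95 (adjusted p = 0.405) was -1.56 without WT replicate 1 and 0.19 without WT replicate 2. Each of those fits leaves 1 WT library. Among the other proteases tested, Mmp3 was at 1.84 and 0.251 against 2.72 and 3.64 RPKM without overlap. The edgeR log2 fold changes were 1.68 for Mmp3 (adjusted p = 0.304), 0.17 for Mmp10 (0.799) and 0.27 for Plau (0.695). The study names small proline-rich genes, S100a8, S100a9, Tgm1, Mmp3 and Egr1 as higher from these same libraries. Their rise, and the counts of the lists that hold them, are thus not independent evidence. With the replicate block Sprr1b passed (edgeR adjusted p = 0.0297), Sprr1a and Mmp13 did not (0.0643 and 0.0846), and Tgm1 did (0.0115). Without Nfat5-/- replicate 1 Sprr1b alone of the 7 lists passed, and without Nfat5-/- replicate 2 the count was 0. DESeq2 also called Krt16, Plaur, S100a8, S100a9 and Tgm1. The smooth muscle and melanocyte markers given above moved with the genotype as well, and their part in the values of the AP-1 genes and of these targets was not tested.

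**Figure D5:**
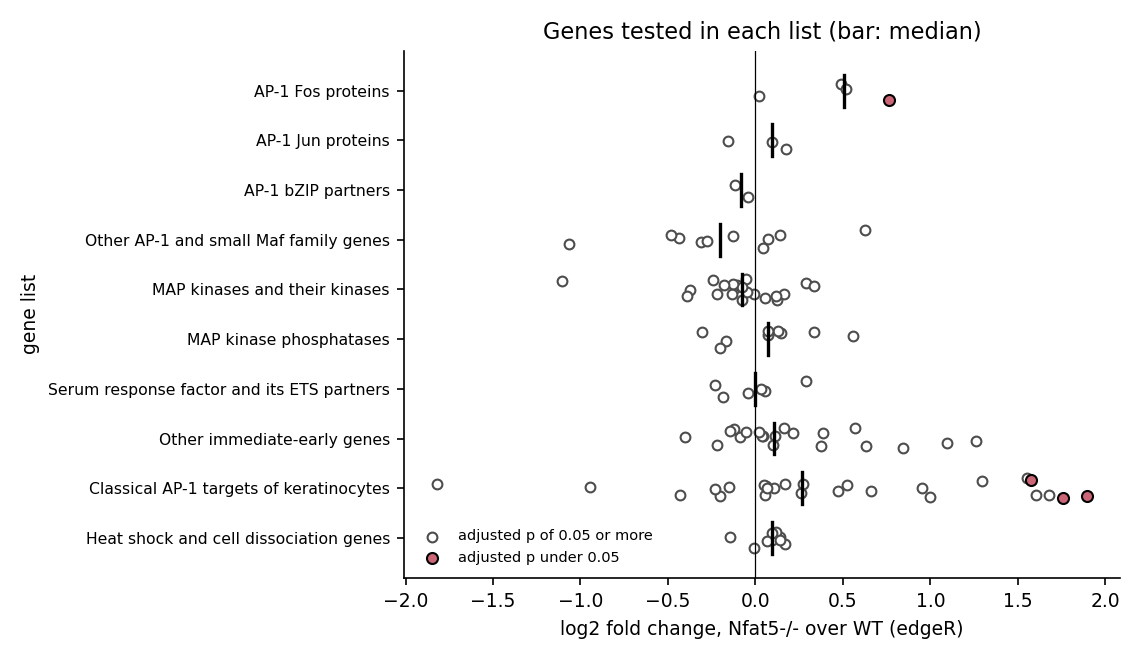
Log2 fold change (edgeR, Nfat5-/- over WT) of each tested gene of the 3 AP-1 groups and the 7 lists around AP-1, with a bar at the median and filled points for genes past the threshold. Filled points are Fos among the AP-1 genes and Sprr1a, Sprr1b and Mmp13 among the targets, and the other lists spread around 0.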

How the data were processed

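Polyadenylated RNA of 4 libraries (2 WT, 2 Nfat5-/-) was sequenced. The authors aligned the reads to GRCm38 with the CLC Genomics Workbench (v12.0, default RNA-Seq settings), and the deposited tables give raw read counts per gene, split into exon and intron reads, and the authors' RPKM values, written with decimal commas and made from exon reads and exon length. The study does not state a count model and lists genes by 2-fold RPKM. Here gene reads of the 4 libraries were fitted with edgeR 4.0.16 (R 4.3.3, filterByExpr, TMM, quasi-likelihood test, genotype alone, two-sided), adjusted by the Benjamini-Hochberg method over the 12614 genes tested. Intron reads were fitted alike over 5734 genes. An SE is the log2 fold change divided by the square root of F. An exact permutation test of 2 against 2 libraries cannot go below 0.333 and was not used. WT replicates, and Nfat5-/- replicates, differed by more than sampling noise (chi-square per degree of freedom 13.3 and 13.8), and the series calls them independent experiments. Alternatives used limma 3.58.1 on RPKM, DESeq2 1.42.0, other scaling, filters and read classes, a replicate block and each library left out. With 1 library left out its genotype keeps 1 library, and the spread then comes from the other genotype alone.

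All 9 AP-1 genes are named, with Nfat5 as a check. Of each list around them, the genes past the threshold (up to 5) or, where fewer than 2 passed, the 2 with the highest mean RPKM are named, and for each AP-1 gene the 3 closest profiles. The genes and lists were chosen with earlier results of these data known. The procedure was tested on simulated counts.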

Additional observations from a re-analysis of the deposited data

How the results depend on the processing

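Fos passed in 12 of 15 settings, with log2 fold changes of 0.69 to 0.81. The AP-1 genes past the threshold, 1 as reported, numbered 0 with the replicate block, 2 with DESeq2, 3 without a filter, and 0 to 1 with each library left out. The block changed no other call of an AP-1 gene. Same-numbered libraries did not deviate together from their group means (correlation over genes -0.065). With 2 libraries per genotype this cannot show whether they shared a litter or a preparation. All genes past the threshold numbered 160, with 132 under the block (109 shared), 1137 without a filter, 427 with DESeq2 and 16 to 478 with each library left out. Without Nfat5-/- replicate 1 they numbered 31 and without replicate 2 16, against 268 and 478 without WT replicates 1 and 2. The genes of the 7 lists past the threshold numbered 3, with 3 under the block (Sprr1b in both, Egr1 and Tgm1 in place of Sprr1a and Mmp13), 5 under DESeq2 size factors, 10 counts in every library, exon reads or limma-trend with a pseudocount of 1, 8 with library totals, 7 with unique exon reads, 11 with DESeq2, 19 without a filter and 0 to 9 with each library left out. On intron reads 8 genes passed, with 3 under the block, 110 without a filter, 2 with library totals and 35 to 109 with each library left out, and AP-1 genes 0 to 1 (Fosb, without WT replicate 2). At an RPKM ratio of 1.5, 1 AP-1 gene (Fos) passed. The sign of Fosb turned to -0.00098 with library totals, -0.048 with exon reads, -0.051 with unique exon reads, -0.032 and -0.042 with limma-trend (pseudocounts 1 and 0.1), -0.21 without WT replicate 1 and -0.17 without Nfat5-/- replicate 2, and was 0.33 at the highest of the left-out libraries. That of Junb turned to -0.075 without WT replicate 1 (0.30 at the highest), and that of Batf3 to 0.30 without WT replicate 2 and 0.24 without Nfat5-/- replicate 2 (-0.65 at the lowest). The cause was not tested. Batf3 had no limma value because its mean lay under 1 RPKM. With 2 libraries per genotype, the intervals of Fosb and Batf3 are too wide to show a moderate difference.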
